A study of Rattus norvegicus with 15 samples.

Results

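The insulin-like growth factor (IGF) system of rat bone is described here through 9 genes: the ligands Igf1 and Igf2, the receptors Igf1r and Igf2r, and the binding proteins Igfbp2, Igfbp3, Igfbp4, Igfbp5 and Igfbp6. They were chosen by gene name, and each matched 1 of the 22468 entries of the expression table. All 9 passed the filter on low counts, which kept 17657 genes for testing.

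RNA was sequenced in bulk from bone of female Sprague-Dawley rats, in 15 libraries of 5 groups with 3 libraries each. Model rats were ovariectomized, an operation that removes the main source of oestrogen and is used to model bone loss after menopause. SYT, YJT and YJZYT rats were also ovariectomized and are known here only by these condition labels. Blank rats had no treatment and were not ovariectomized, and no sham operation is described for them. The title of the series names Zhuanggu Zhitong Capsule, a herbal medicine used in China, but no label ties it to a group. Ages and the bone sampled are not given, and no separate animals are named, so the p-values rest on the spread between libraries, part of which may be technical. Libraries are named by group and replicate number.

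IGF1 and IGF2 are small secreted growth factors that signal through the IGF1 receptor, a tyrosine kinase of the cell surface. Bone stores both in its matrix, and osteoblasts make IGF1 locally in response to growth hormone and parathyroid hormone. The IGF2 receptor, which also sorts lysosomal enzymes, takes IGF2 up for degradation. The binding proteins hold nearly all secreted IGF, and depending on the protein and on proteases they carry it, hold it in the matrix or keep it from its receptor.

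The deposited table gives coordinates without naming a genome build, and in them the 9 genes lie on chromosomes 1, 7, 9, 10 and 14. Igfbp2, on the forward strand of chromosome 9 from 80118029 to 80144789, lies tail to tail with Igfbp5, on the reverse strand from 80150211 to 80167033. Their ends are 5421 bases apart. Igf1, on chromosome 7 from 28412198 to 28486609, and Igfbp6, on the same chromosome from 143749221 to 143754054, are both on the forward strand. Igf2 lies on the reverse strand of chromosome 1 from 215828102 to 215846911. The annotated entries that overlap Igf1r and Igf2r on the other strand, 5S_rRNA and AC129234, held at most 4 and 2 counts in any library.

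The 150 bases before the annotated start are shown for the genes whose levels moved together most closely over the libraries (Igf1 with Igfbp5, and Igf2 with Igfbp6) and for Igfbp4, the most abundant. They come from RefSeq on the build GRCr8, in which all 9 genes had an entry, and run 5′ to 3′ on the gene's own strand. Igf2 had 2 annotated starts, of which the downstream one is shown. Capitals mark matches to the 3 motifs described after them.
Igf1, chr7:24172382-24172531, forward strand: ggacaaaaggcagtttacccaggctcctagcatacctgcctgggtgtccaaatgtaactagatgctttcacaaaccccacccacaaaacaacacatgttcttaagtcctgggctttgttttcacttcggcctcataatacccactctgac
Igfbp5, chr9:81914188-81914337, reverse strand: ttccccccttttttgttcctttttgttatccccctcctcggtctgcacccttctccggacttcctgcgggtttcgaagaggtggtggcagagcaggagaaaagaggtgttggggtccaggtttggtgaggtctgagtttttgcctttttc
Igf2, chr1:207250476-207250625, reverse strand: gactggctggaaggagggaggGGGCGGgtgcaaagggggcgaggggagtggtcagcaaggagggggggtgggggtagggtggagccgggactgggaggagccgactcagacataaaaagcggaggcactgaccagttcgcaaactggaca
Igfbp6, chr7:135154769-135154918, forward strand: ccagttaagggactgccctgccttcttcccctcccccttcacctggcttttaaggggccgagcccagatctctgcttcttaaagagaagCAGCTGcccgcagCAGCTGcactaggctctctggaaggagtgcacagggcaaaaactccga
Igfbp4, chr10:84491321-84491470, forward strand: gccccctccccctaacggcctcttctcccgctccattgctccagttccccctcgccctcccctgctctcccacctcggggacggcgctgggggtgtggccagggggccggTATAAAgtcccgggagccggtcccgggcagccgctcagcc

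Both strands of the 250 bases before each start were searched for 3 motifs, which were chosen with these sequences in view and whose matches do not overlap. TATAAA, the core of a TATA box, was in 12.9% of all 33469 such windows of the rat annotation. GGGCGG, the core of a GC box, was in 30.5% of them, and CAGCTG, an E-box, in 12.0%. Among the 9 genes TATAAA was found before Igfbp4, and CAGCTG before Igfbp6, where it began at positions -61 and -48, counted from the first base of the transcript. GGGCGG was found before Igf1r, Igf2r, Igfbp2 and the downstream start of Igf2. None of the 3 motifs was in the windows of Igf1, Igfbp5 and Igfbp3.

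Levels of different genes were compared per length, as FPKM (fragments scaled to transcript length and library size). Igfbp4 averaged 54.7 ± 26.3 FPKM over the 15 libraries and Igfbp5 44.8 ± 20.7 FPKM (SD, n = 15). These binding proteins held the first and second place in every library, Igfbp4 above Igfbp5 in 11 of 15. After them came Igfbp6 at a mean of 12.2 FPKM, Igf2r at 10.97 FPKM, Igfbp3 at 8.67 FPKM, Igf1 at 8.34 FPKM and Igfbp2 at 5.86 FPKM. Igf2 averaged 1.71 FPKM and Igf1r 1.25 FPKM. Below the first pair, neighbours in this order were not kept apart by their spread: Igfbp6 lay above Igf2r in 6 of 15 libraries, Igfbp3 above Igf1 in 10 and Igf2 above Igf1r in 11.

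The genes differed widely in how much they varied. Igf2r was the steadiest in FPKM, with a highest value 2.13 times its lowest, 15.0 FPKM in Model3 and 7.06 FPKM in YJZYT3. Igfbp6 spanned the widest range, 152.5-fold, with 35.0 FPKM in Blank1 and 0.229 FPKM in YJZYT2. Igfbp2 spanned 62.5-fold, with 14.4 FPKM in SYT3 and 0.23 FPKM in YJT2, and its spread lay mostly within groups. Of the variance of log2 CPM, 66.2% lay between the 5 groups for Igfbp6 and 64.0% for Igf2, against 22.8% for Igfbp2. The other members ran from 28.1% for Igfbp4 to 45.9% for Igf1. With so few libraries a group, a part of the variance falls between groups by chance.

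**Figure D1:**
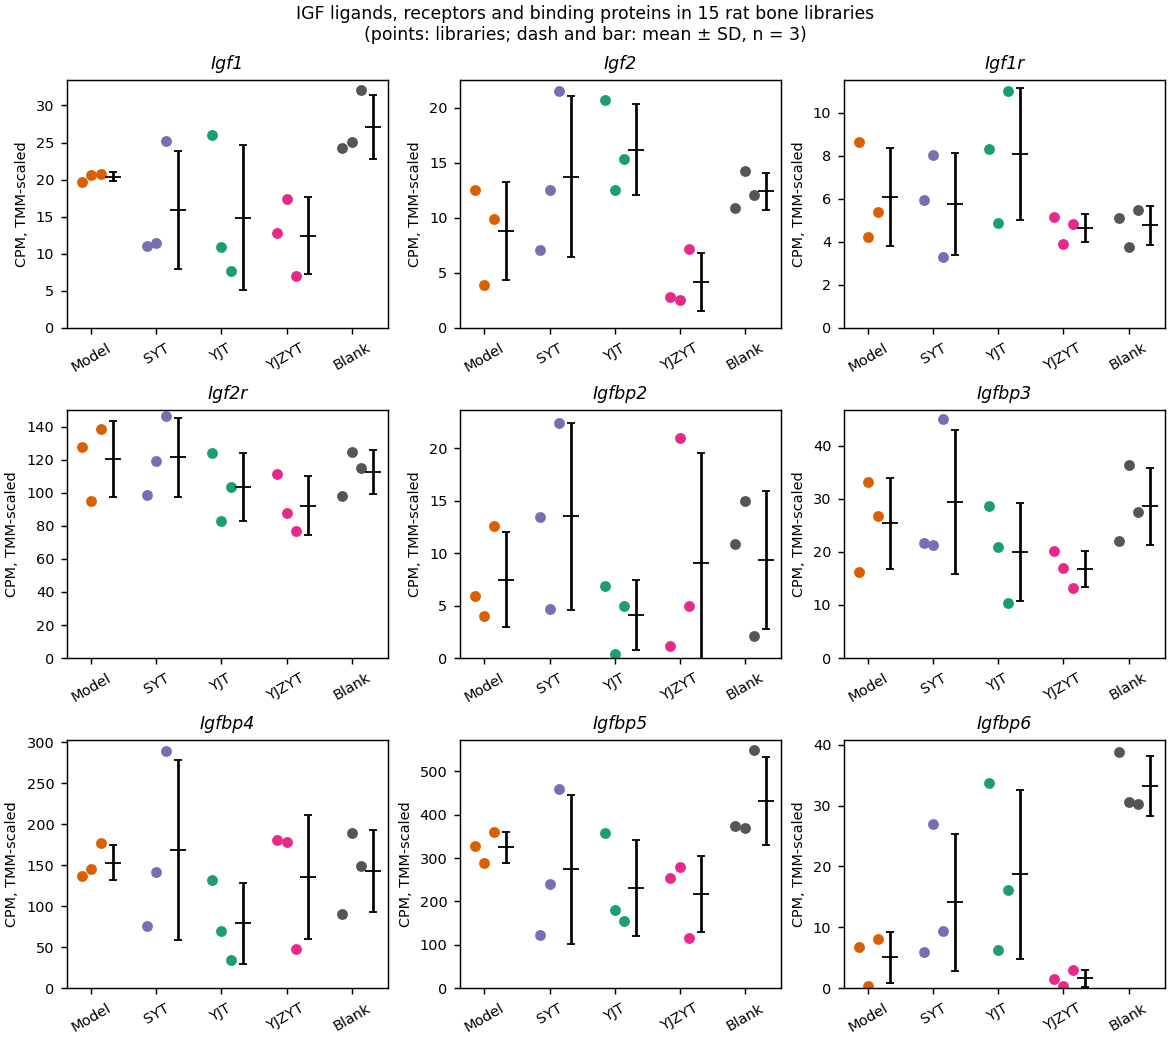
TMM-scaled CPM of the 9 genes, 1 panel a gene, with groups on the x axis; points are libraries and the dash with its bar is the mean ± SD of 3 libraries (bars are cut at 0). Igfbp6 lies above 30 CPM in all 3 Blank libraries and below 3 CPM in all 3 YJZYT libraries, and the groups of Igf2r all overlap.

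Differences between groups were tested with edgeR on the counts, in 1 fit of all 15 libraries and with p-values adjusted over the 17657 genes. Values below are CPM, counts scaled to library size with TMM factors. None of the 9 genes passed the adjusted threshold of 0.05 in Model against Blank, where 0.0227% of all tested genes did (4 genes, all lower). None passed in SYT, YJT or YJZYT against Model, where the share of all genes was 0%, nor in SYT or YJT against Blank, also 0%. None passed in YJZYT against Blank, where 0.374% of all genes did. At an unadjusted p under 0.05, 1 member was counted in Model against Blank (8.19% of all genes) and 4 in YJZYT against Blank (11.9%). It was 0 members in SYT, YJT and YJZYT against Model (3.16%, 6.58% and 7.29% of all genes) and in SYT and YJT against Blank (5.02% and 8.3%). The test of any difference among the 5 groups passed 0 members and 0.0227% of all genes, or 2 members and 7.71% of all genes unadjusted.

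DESeq2, run on the same counts, called 0 of 9 in Model against Blank, where it called 1.62% of the genes it tested. It called 0 in SYT, YJT and YJZYT against Model (0.135%, 0.479% and 0.332% of genes) and in SYT and YJT against Blank (0.159% and 0.599%). It called 1 in YJZYT against Blank (3.87%) and 1 for any difference (3.32%), and both calls were Igfbp6.

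Igfbp6, which binds IGF2 far more tightly than IGF1, showed the widest differences. It had 6.70, 0.337 and 8.11 CPM in the Model libraries, against 38.8, 30.6 and 30.3 CPM in the Blank libraries. Every Model library was lower than every Blank library, and Model2 held 24 counts of the gene. The log2 fold change in Model against Blank was -2.72 (SE 1.004, unadjusted p = 0.0179, edgeR adjusted p = 0.47).

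In YJZYT libraries Igfbp6 had 1.56, 0.289 and 2.96 CPM, all of them below every Blank library, and YJZYT2 held 21 counts of it. The log2 fold change in YJZYT against Blank was -4.38 (SE 1.09), a 20.8-fold difference with an edgeR adjusted p of 0.0992. DESeq2 gave an adjusted p of 0.000188 and limma on log2(FPKM + 1), which called 2.24% of its genes here, gave 0.0168, so the call depended on the tool. SYT and YJT libraries spread widely, at 6.01, 26.9 and 9.42 CPM in SYT and 33.7, 6.26 and 16.2 CPM in YJT. All SYT libraries lay between those of YJZYT and those of Blank. The YJT libraries overlapped Blank, since YJT1 lay above Blank2 and Blank3. Against Model the log2 fold change was 1.48 (SE 0.96, edgeR adjusted p = 1) in SYT, 1.89 (SE 0.98, adjusted p = 0.772) in YJT and -1.66 (SE 0.98, adjusted p = 0.742) in YJZYT, and in all 3 the libraries overlapped those of Model. Single libraries moved these values: the value in SYT was 0.61 without SYT2 and 0.93 without Model2, that in YJT was 1.15 without YJT1, and that in YJZYT was -1.09 without Model3.

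The summed markers of skeletal and of smooth muscle had the same order of group means as Igfbp6, with Blank highest, then YJT, SYT, Model and YJZYT. Of 18 skeletal muscle markers 15 were in the table, and their summed level ran from 281 to 1059.8 CPM in Model, from 1007 to 4796 CPM in SYT, from 3717 to 4627 CPM in YJT, from 52.9 to 1068 CPM in YJZYT and from 5008 to 7569 CPM in Blank. The 7 smooth muscle and pericyte markers summed to between 79.1 and 214 CPM in Model, 132 and 373 CPM in SYT, 231 and 395 CPM in YJT, 52.6 and 128 CPM in YJZYT, and 340.1 and 421 CPM in Blank. The 13 adipocyte markers in the table, of 14 listed, summed to between 284 and 425 CPM in Model, 459.7 and 472 CPM in SYT, 349.8 and 624 CPM in YJT, 279.6 and 395 CPM in YJZYT, and 609.7 and 776 CPM in Blank. No marker of these lists was at 0 in a whole group. Over the 15 libraries, Igfbp6 correlated with the smooth muscle score at r = 0.891 (rho 0.854, permutation p = 3e-05, adjusted p = 0.000617 over 144 relations of members with marker lists). It correlated with the skeletal muscle score at r = 0.878 (adjusted p = 0.000617) and with the adipocyte score at 0.862 (adjusted p = 0.00133). The permutations shuffled libraries across groups, so these p-values include differences between groups. Within groups, as deviations from group means, the values of r were 0.689, 0.641 and 0.698. Without the pair of libraries farthest from the median score they were 0.876, 0.769 and 0.852. Igfbp6 also correlated with the endothelial score (r = 0.719, adjusted p = 0.0111, rho 0.832), with r of 0.419 within groups. By rank alone the tendon, periosteum and fibroblast score passed (rho 0.65, adjusted permutation p = 0.0433). The T and NK cell score passed by rank in the other direction (rho -0.661, adjusted permutation p = 0.0382). The part of these tissues in the Igfbp6 differences was not tested. In bulk RNA, fewer cells of a type and less RNA per cell cannot be told apart.

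Igf2, the growth factor best known from fetal growth and expressed from the paternal allele, was read at low levels in every group. It had 12.6, 3.88 and 9.92 CPM in Model, 7.06, 12.6 and 21.5 CPM in SYT, 20.7, 12.6 and 15.3 CPM in YJT, 2.79, 2.56 and 7.21 CPM in YJZYT and 10.9, 14.2 and 12.1 CPM in Blank. The YJZYT libraries lay below all Blank and all YJT libraries, while the other groups overlapped Blank. The log2 fold change was -1.57 in YJZYT against Blank (SE 0.51, edgeR adjusted p = 0.216), -1.07 in YJZYT against Model (SE 0.50, adjusted p = 0.681) and 0.88 in YJT against Model (SE 0.50, adjusted p = 0.779). In Model against Blank it was -0.50 (SE 0.50, adjusted p = 0.883), and -0.14 without Model2. Without Model2 the value in YJT against Model was 0.53, and that in YJZYT against Model ran from -1.71 without YJZYT3 to -0.65 without Model1.

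Igf1, the main postnatal growth factor of the skeleton, had 19.7, 20.6 and 20.8 CPM in Model, against 24.2, 25.1 and 32.1 CPM in Blank. The Model libraries lay close to one another and below every Blank library. The log2 fold change of -0.41 (SE 0.44) had an edgeR adjusted p of 0.896. Igf1 had 11.1, 11.5 and 25.2 CPM in SYT, 26.0, 10.97 and 7.68 CPM in YJT and 12.8, 17.4 and 7.02 CPM in YJZYT. The YJZYT libraries lay below every Model library, with a log2 fold change of -0.71 (SE 0.44, adjusted p = 0.759; -0.43 without YJZYT3), and below every Blank library, with -1.13 (SE 0.45, adjusted p = 0.326).

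The ratio of the ligands followed from these levels. Igf1 over Igf2, in FPKM, averaged 3.57 ± 0.97 in SYT, 2.57 ± 1.10 in YJT and 12.1 ± 8.64 in YJZYT, against 8.79 ± 5.95 in Model and 6.49 ± 1.31 in Blank (SD, n = 3 each). All SYT and YJT libraries lay at or below 4.60, and the Model libraries between 4.60 and 15.6. No test was made of these ratios.

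Of the receptors, Igf1r, which transmits the signal of both ligands, was the lowest of the 9 genes per length. It averaged 6.09 ± 2.29 CPM in Model, 5.77 ± 2.37 CPM in SYT, 8.07 ± 3.06 CPM in YJT, 4.64 ± 0.65 CPM in YJZYT and 4.77 ± 0.91 CPM in Blank (SD, n = 3 each). Its log2 fold change was 0.35 in Model against Blank (adjusted p = 0.897), and against Model it was -0.08 in SYT (adjusted p = 1), 0.41 in YJT (adjusted p = 0.859) and -0.39 in YJZYT (adjusted p = 0.833), each with an SE of 0.38. Without Model1 it was -0.051 in Model against Blank and 0.0068 in YJZYT against Model. Igf2r averaged 120.5 ± 22.8 CPM in Model, 121 ± 23.9 CPM in SYT, 104 ± 20.8 CPM in YJT, 92.1 ± 17.8 CPM in YJZYT and 113 ± 13.5 CPM in Blank. Its log2 fold change had the smallest standard errors of the 9, at 0.21, and over these 4 comparisons lay between -0.39 in YJZYT against Model (adjusted p = 0.724) and 0.10 in Model against Blank (adjusted p = 0.97).

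Igfbp5, the binding protein that attaches to bone matrix and mineral, had 327, 288 and 360.3 CPM in Model, against 374.5, 370.2 and 549.5 CPM in Blank. As for Igf1, the Model libraries lay below every Blank library, and the log2 fold change was -0.41 (SE 0.45, edgeR adjusted p = 0.902). It had 122, 241 and 460 CPM in SYT, 357, 180 and 156 CPM in YJT and 254, 280 and 117 CPM in YJZYT. The log2 fold change in YJZYT was -0.58 against Model (SE 0.45, adjusted p = 0.802) and -0.99 against Blank (SE 0.46, adjusted p = 0.417), with the YJZYT libraries below all of both groups. Such a gap below Model was seen in 2 members, Igf1 and Igfbp5, and in 5.57% of all tested genes.

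Igfbp4, which mainly holds IGF back from its receptor and releases it when cleaved by the protease PAPP-A, had 132, 69.9 and 34.9 CPM in YJT, against 137, 145 and 177 CPM in Model. The YJT libraries lay below every Model library, as 4.92% of all tested genes did, and the log2 fold change was -0.96 (SE 0.58, adjusted p = 0.794). It was -0.60 without YJT3 and -1.55 without YJT1. Igfbp4 had 75.3, 142 and 289 CPM in SYT and 180.2, 178 and 48.1 CPM in YJZYT, against 90.6, 189 and 149 CPM in Blank. These groups overlapped one another.

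The low Igfbp4 libraries were YJT3 and YJZYT3, which also stood apart in Col1a1, the main collagen gene of bone, with 2109 and 2431 CPM against 9217 to 75010 CPM in the other 13. The 13 osteoblast markers in the table, of 14 listed, summed to between 3890 and 38348 CPM in YJT and 4991 and 43423 CPM in YJZYT, against 27212 and 64464 CPM in Model. No osteoblast marker was at 0 in a whole group. The part of the bone cell content in the Igfbp4 values was not tested. Without both libraries the log2 fold change of Igfbp4 in YJZYT against Model was 0.22, against -0.18 with them.

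Igfbp3, which with IGF forms the main carrier complex of the blood, averaged 25.4 ± 8.60 CPM in Model, 29.3 ± 13.5 CPM in SYT, 19.9 ± 9.19 CPM in YJT, 16.8 ± 3.44 CPM in YJZYT and 28.6 ± 7.24 CPM in Blank (SD, n = 3 each). Its YJZYT libraries, from 13.2 to 20.1 CPM, lay below all Blank libraries, from 22.0 to 36.3 CPM. The log2 fold change was -0.77 (SE 0.40, edgeR adjusted p = 0.468). The 14 tendon, periosteum and fibroblast markers summed to between 478 and 2113 CPM in YJZYT, against 2633 and 4128 CPM in Blank, and 13 of them were lower in YJZYT. The 11 endothelial markers in the table, of 12 listed, summed to between 140.2 and 205 CPM in YJZYT, against 314 and 387 CPM in Blank, and all 11 were lower in YJZYT. The 8 osteocyte markers in the table, of 9 listed, summed to between 279 and 536 CPM in YJZYT, against 712 and 1109 CPM in Blank. All 8 were lower in YJZYT. Igfbp3 had r = 0.840 with the osteocyte score and 0.663 with the endothelial score. The muscle, adipocyte and marrow stromal sums also lay below all of Blank in YJZYT. Other sums overlapped Blank, among them that of the osteoblast markers, whose score had the highest r with Igfbp3 (0.878). It ran from 4991 to 43423 CPM in YJZYT, against 16101 to 51318 CPM in Blank. The osteoclast sum ran from 1148 to 6046 CPM against 2092 to 6096 CPM, and the chondrocyte sum from 155 to 8141 CPM against 1457 to 6766 CPM. No marker of these lists was at 0 in a whole group, and their part in the level of Igfbp3 was not tested. Igfbp2, which binds both ligands, had 5.87, 3.98 and 12.6 CPM in Model, 13.4, 4.66 and 22.4 CPM in SYT, 6.89, 0.40 and 4.92 CPM in YJT, 1.14, 21.0 and 4.98 CPM in YJZYT and 10.9, 15.0 and 2.15 CPM in Blank. Every group of Igfbp2 overlapped every other, and its standard errors of about 1.05 on the log2 scale were among the widest.

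Over the 9 genes, the median log2 fold change in Model against Blank was -0.32, with 3 positive and 6 negative, beside 0.02 over all tested genes. In 3 members, Igf1, Igfbp5 and Igfbp6, every Model library lay below every Blank library, which held for 7.99% of all tested genes. In YJZYT against Blank all 9 fold changes were negative, with a median of -0.77 beside -0.0049 over all tested genes. Those of Igf1r (-0.043, SE 0.38), Igfbp2 (-0.048, SE 1.05) and Igfbp4 (-0.079, SE 0.57) were far smaller than their standard errors, so their sign says little. There 5 members had every YJZYT library below every Blank library (Igf1, Igf2, Igfbp3, Igfbp5 and Igfbp6), as 12.7% of all tested genes did. Only Igfbp6 did so in SYT against Blank (5.49% of all genes) and only Igfbp5 in YJT against Blank (7.73%). Against Model the median was 0.14 in SYT, -0.35 in YJT and -0.58 in YJZYT, beside 0.02, -0.02 and -0.07 over all tested genes. Without TMM factors the median of all genes in SYT against Model moved by -0.25, and Igf2r, Igfbp3 and Igfbp4 were then lower in SYT instead of higher. The Model libraries are shared by these comparisons, and the Blank libraries by those against Blank.

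**Figure D2:**
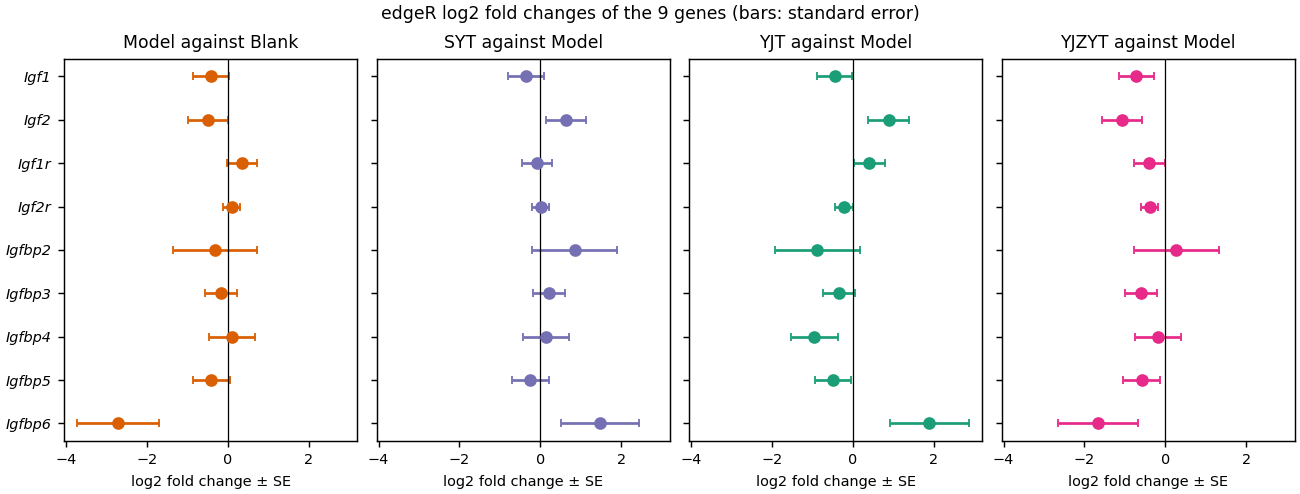
Log2 fold change of each gene (edgeR; bars are the standard error) in Model against Blank and in SYT, YJT and YJZYT against Model. Igfbp6 stands at -2.72 in Model against Blank with a bar of 1.004 on each side, and most other bars reach or lie near 0.

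The conditions were also compared with one another, in contrasts added after the data were seen. Igfbp6 differed by a log2 fold change of -3.55 in YJZYT against YJT (SE 1.05, edgeR adjusted p = 0.287) and of -3.14 in YJZYT against SYT (SE 1.03, adjusted p = 0.424). In both, all YJZYT libraries lay below all libraries of the other condition. Such a gap was seen in 2 members in each contrast, against 7.59% of all genes in YJZYT against YJT and 6.56% in YJZYT against SYT. Igf2 differed by -1.95 in YJZYT against YJT (SE 0.51, adjusted p = 0.208). None of the 9 genes passed in these contrasts with edgeR, nor did any gene of the table (0% in each), while 2 members had an unadjusted p under 0.05 in YJZYT against YJT (6.39% of all genes) and in YJZYT against SYT (9.1%), and 0 in YJT against SYT (3.05%). DESeq2 gave adjusted p of 0.00743 and 0.0399 for the Igfbp6 differences and 0.0111 for that of Igf2. It called 2.1% of all genes in YJZYT against YJT and 1.51% in YJZYT against SYT, and 0 members and 0.0356% of all genes in YJT against SYT.

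The make-up of the binding protein transcripts was taken as each gene's share of the summed FPKM of Igfbp2 to Igfbp6. The sum averaged 129 ± 77.2 FPKM in SYT, 88.1 ± 48.4 FPKM in YJT and 98.5 ± 47.9 FPKM in YJZYT, against 138 ± 22.8 FPKM in Model and 177 ± 22.7 FPKM in Blank (SD, n = 3 each). Igfbp6 made up 4.60%, 0.234% and 4.42% of it in the Model libraries, against 22.8%, 13.9% and 13.9% in the Blank libraries. It made up 18.5%, 7.53% and 23.0% in YJT, 6.98%, 17.5% and 3.44% in SYT and 1.07%, 0.174% and 5.11% in YJZYT. Igfbp4 took the larger part in Model, 48.0% ± 1.99, against 34.0% ± 8.11 in Blank. It took 33.8% ± 8.68 in YJT, 46.7% ± 4.63 in SYT and 51.6% ± 9.98 in YJZYT. Shares within a library add up to the whole, so those of Igfbp4 and Igfbp6 are not independent. The level of Igfbp4 itself had a log2 fold change of 0.10 in Model against Blank (edgeR adjusted p = 0.993). The Igfbp5 share was 28.3% ± 2.37 in SYT, against 37.9% ± 2.66 in Model.

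From FPKM, the shares of Igfbp4 and Igfbp6 did not overlap between Model and Blank, nor between YJT and Model. That of Igfbp5 did not overlap between SYT and Model. For these 5 differences the exact two-sided permutation test gave p = 0.1, the smallest that 3 against 3 libraries allow, and an adjusted p of 0.4 over 20 comparisons. From CPM, the Igfbp4 shares of Model and Blank overlapped. The sizes also depended on the unit: the Igfbp6 share differed by -13.8 percentage points from FPKM and -4.39 from CPM in Model against Blank, and by 13.3 from FPKM and 4.26 from CPM in YJT against Model. In SYT against Model the Igfbp4 share differed by -1.27 from FPKM and 3.39 from CPM. Binding protein over ligand FPKM was 9.87 ± 0.064 in YJT, where the 3 libraries gave 9.94, 9.82 and 9.84. It was 14.8 ± 3.06 in SYT and 15.5 ± 4.12 in YJZYT, against 12.1 ± 1.39 in Model and 11.7 ± 1.33 in Blank. The YJT libraries lay below those of every other group in this ratio, which was not tested.

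**Figure D3:**
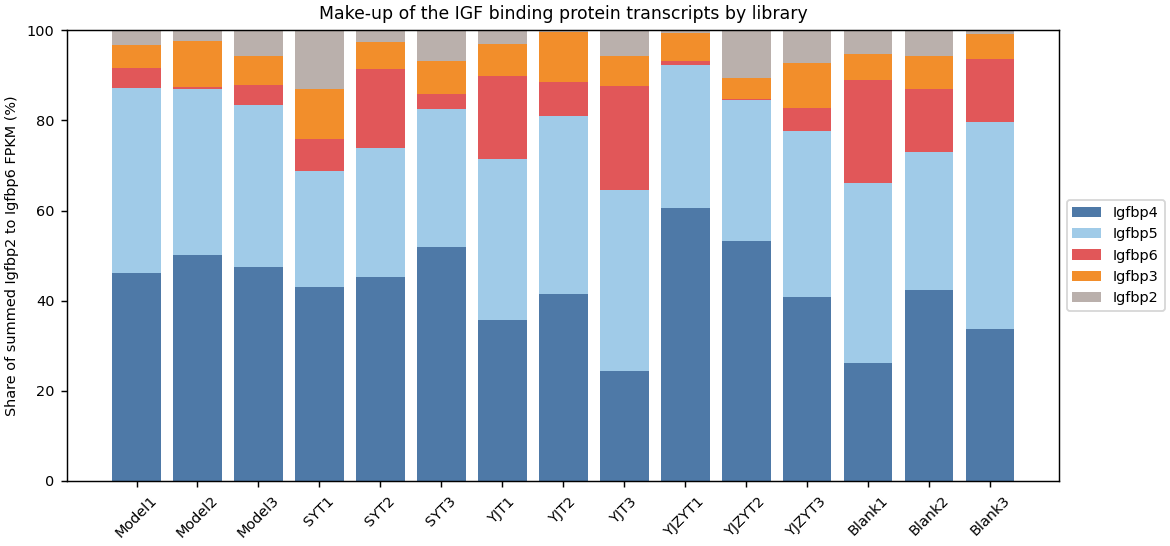
Share of each binding protein gene in the summed FPKM of Igfbp2 to Igfbp6 (percent, y axis) in each library (x axis). The Igfbp6 segment is 13.9% or more in the 3 Blank libraries and at most 4.60% in the 3 Model libraries.

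Across the 15 libraries some of the genes moved closely together. Of 36 pairs, correlated on log2 CPM, 29 had a positive and 7 a negative Pearson's r, and 9 passed at an adjusted p under 0.05 by r, of which 4 also passed by Spearman's rho. Igf1 and Igfbp5 gave r = 0.937 and rho = 0.946, each with a permutation p of 1e-05, the smallest that 100000 resamples can give, and an adjusted p of 0.00036. The value was 0.905 without YJT3 and YJZYT3, which lay farthest from the median of Igf1, and 0.897 for deviations from group means. Igf2 and Igfbp6 gave r = 0.848 (permutation p = 0.00025, adjusted p = 0.0045) and rho = 0.729 (adjusted p = 0.0342). That value was 0.766 without YJZYT1 and YJZYT2, and 0.751 for deviations from group means.

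**Figure D4:**
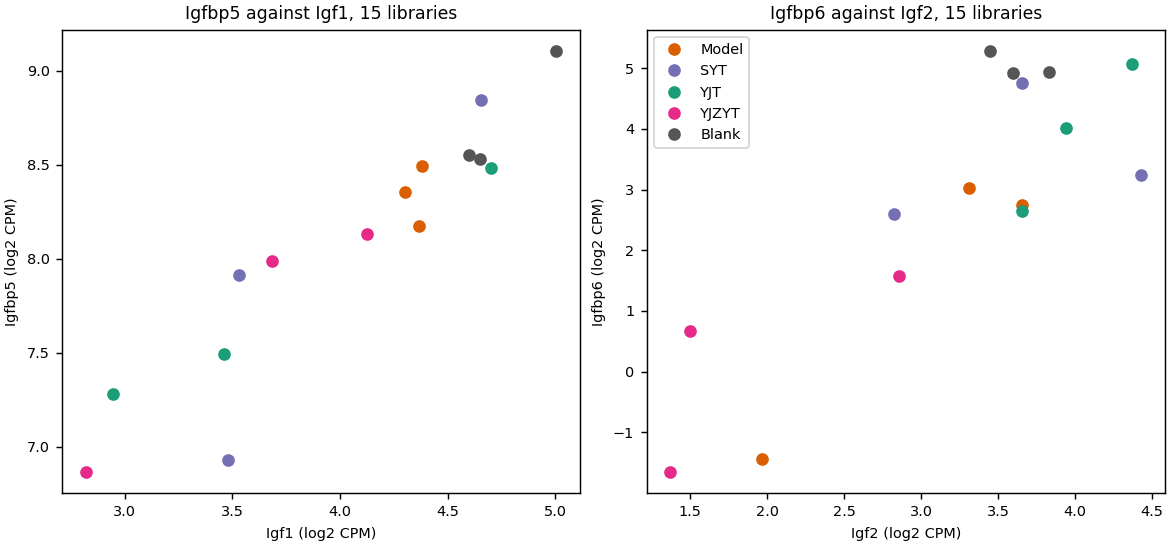
Log2 CPM of Igfbp5 against Igf1 (left) and of Igfbp6 against Igf2 (right), 1 point a library, coloured by group. The left pair has r = 0.937 and the right pair r = 0.848; Model2 and YJZYT2 lie lowest on the right.

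The other 7 pairs that passed joined Igf1, Igfbp3, Igfbp4, Igfbp5 and Igf2r to one another, with r from 0.646 for Igf2r with Igfbp4 to 0.772 for Igfbp4 with Igfbp5. By rank, Igf1 with Igfbp3 (adjusted p = 0.0117) and Igfbp3 with Igfbp5 (adjusted p = 0.0342) passed as well, and the other 5 did not, with adjusted p from 0.0948 to 0.114. Several rested in part on the libraries low in Col1a1. Without YJT3 and YJZYT3, r was 0.469 for Igf1 with Igfbp4, where it had been 0.741, and 0.49 for Igfbp3 with Igfbp4, where it had been 0.76. For Igf1 with Igfbp3 it was 0.547, where it had been 0.754. Igf1r, in contrast, had r of -0.58 with Igfbp3 (adjusted p = 0.078), -0.50 with Igfbp4 (adjusted p = 0.152) and -0.33 with Igf1 (adjusted p = 0.443), none of which passed. The r of neighbouring Igfbp2 and Igfbp5 was 0.22.

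**Figure D5:**
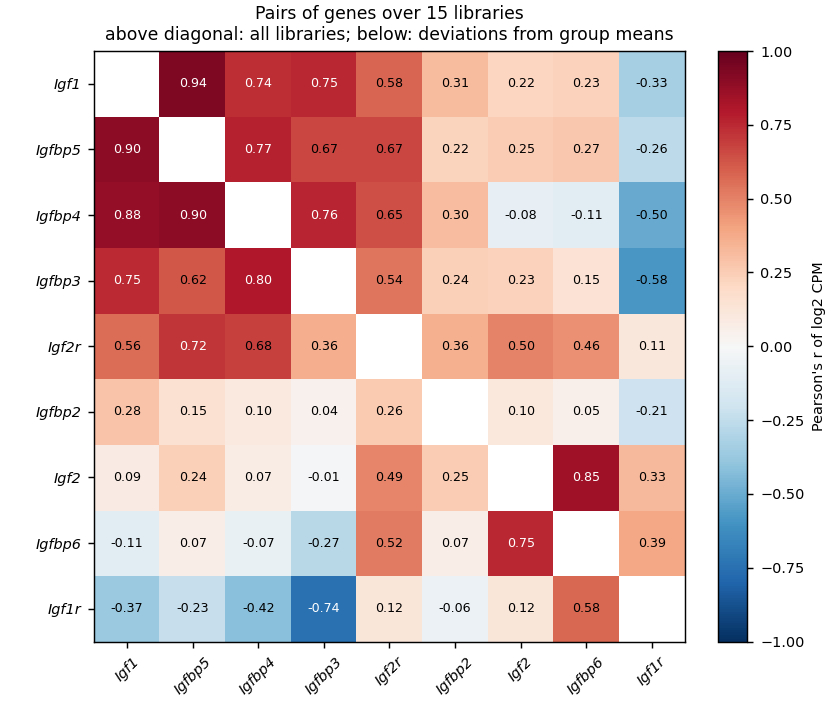
Pearson's r of log2 CPM for each pair of the 9 genes over 15 libraries (above the diagonal) and for deviations from group means (below). Igf1, Igfbp5, Igfbp4 and Igfbp3 form a block with r of 0.667 or more, and Igf2 with Igfbp6 stands at 0.848.

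The marker lists with the highest r differed between members, but members also passed with other lists, in both directions. Among others, Igfbp5 had r = 0.827 with the monocyte and macrophage score, 0.807 with the endothelial score and -0.735 with the neutrophil score. Igf1 had 0.792 with the osteocyte score, 0.779 with the endothelial score and -0.580 with the neutrophil score. Igfbp3 had -0.759 with the erythroid score. Igfbp4 correlated most with the osteoclast score (r = 0.976, adjusted p = 0.00036 over 144 relations, 0.946 without YJT3 and YJZYT3) and next with the osteoblast score (r = 0.933, 0.828 without them). Igfbp5 correlated most with the marrow stromal cell score (r = 0.909, adjusted p = 0.00036), as did Igf1 (r = 0.865, adjusted p = 0.00036). For deviations from group means these were 0.965 and 0.897. The 9 marrow stromal markers in the table, of 10 listed, summed to between 751 and 964 CPM in Model, 309 and 1423 CPM in SYT, 333 and 775 CPM in YJT, 502 and 929.8 CPM in YJZYT, and 977 and 1529 CPM in Blank, with no marker at 0 in a whole group. Their part in the levels of Igf1 and Igfbp5 was not tested. Igfbp3 had r = 0.878 and rho = 0.75 with the osteoblast score (r = 0.755 without YJT3 and YJZYT3). With the tendon, periosteum and fibroblast score it had r = 0.831 and rho = 0.857 (r = 0.809 without those libraries), so the order of these lists depended on the measure. Igf2 had its highest r with the smooth muscle score (0.865) and Igf2r with the monocyte and macrophage score (0.812). The 8 osteoclast markers summed to between 1112 and 4799.7 CPM in YJT and 1148 and 6046 CPM in YJZYT, against 4087 and 5584 CPM in Model, with none at 0 in a whole group. The part of these cells in the levels of the 4 genes was not tested.

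For each member the 3 genes most alike in pattern were found among 13145 genes with a symbol and a mean of at least 1 FPKM, by r of log2 CPM over the 15 libraries. They were picked for a high r, so no p is given. Fbn1, which encodes the microfibril protein fibrillin 1, and Kitlg, which encodes stem cell factor, were near both Igfbp5 (r = 0.974 and 0.955) and Igf1 (r = 0.937 and 0.929). Igf1 had Rapgef5 and Igfbp5 had Scpep1 as the other one of its 3. Igfbp6 was most like Dpt (r = 0.983), Ccn3 (r = 0.981) and Col14a1 (r = 0.959), which all encode proteins of the extracellular matrix. Igf2 was most like Cpne8 (r = 0.923), Bcam, a laminin receptor (r = 0.914), and Acta2, the smooth muscle actin (r = 0.893). Igfbp4 was most like Clmp (r = 0.972), Steap2 (r = 0.970) and Atp6v0d2, a proton pump subunit of osteoclasts (r = 0.966). Igfbp3 was most like Prtfdc1 (r = 0.957), Dbndd2 (r = 0.947) and the transcription factor gene Twist1 (r = 0.947). Igf2r was most like Bmpr2, a receptor for bone morphogenetic proteins (r = 0.942), Rapgef2 and Slc38a7. Igf1r was most like Pxn, the focal adhesion protein paxillin (r = 0.902), Kdm6b and Rtp3. Igfbp2 had the weakest nearest gene, Plin3 (r = 0.822), followed by Tnfrsf13b and AABR07055919.

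Other genes of IGF action, the growth hormone axis and imprinted growth control were read from 3 lists, of whose members 53 were tested apart from the 9. None passed edgeR's adjusted threshold in Model against Blank or in SYT, YJT or YJZYT against Model. DESeq2 and limma also called 0 of them in each. At an unadjusted edgeR p under 0.05 the numbers were 2, 0, 0 and 3 of 53, each a smaller share than that of all tested genes (8.19%, 3.16%, 6.58% and 7.29%). The median log2 fold changes were -0.16, 0.09, 0.02 and -0.05. Igfbp1, a further binding protein known from the liver, had 11 counts in Model1 and 0 in the other 14 libraries and was not tested. Pappa, Irs4, Igf2bp1, H19 and Meg3 were not analysed here.

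The smallest unadjusted p in Model against Blank belonged to Pik3ca, the catalytic subunit of the kinase downstream of the IGF1 receptor, and Socs1, an inhibitor of cytokine signalling. Pik3ca averaged 104 ± 31.9 CPM in Model against 74.2 ± 6.43 CPM in Blank, with a log2 fold change of 0.49 (SE 0.19, edgeR adjusted p = 0.506). Socs1 averaged 5.64 ± 2.51 CPM in Model against 2.91 ± 1.504 CPM in Blank, with a log2 fold change of 0.96 (SE 0.42, adjusted p = 0.573). Ptpn1, a phosphatase of insulin signalling, followed with -0.35 (adjusted p = 0.698).

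In YJZYT against Model, Pappa2, a protease that cleaves Igfbp3 and Igfbp5, had 0.312, 0.688 and 0.832 CPM in YJZYT, against 5.51, 0.983 and 0.824 CPM in Model, with a log2 fold change of -1.99 (SE 0.72, edgeR adjusted p = 0.638). Model1 was high, and the other Model libraries lay near those of YJZYT. Akt2, a kinase of the insulin and IGF pathway, had positive log2 fold changes against Model of 0.36 in SYT, 0.40 in YJT and 0.54 in YJZYT, with adjusted p of 1, 0.777 and 0.649. Igfals, the third partner of the blood carrier complex, had -1.01 in SYT against Model (adjusted p = 1) at 0.638 ± 0.72 CPM in SYT and 1.29 ± 0.25 CPM in Model. Rptor had -0.30 in SYT and Stat5a, which carries the growth hormone signal, 0.34 in YJT (adjusted p = 1 and 0.772).

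Igfbp7, a distant relative of the binding proteins with low affinity for IGF, averaged 32.9 ± 14.9 CPM in YJZYT, against 55.6 ± 2.00 CPM in Model and 84.7 ± 15.2 CPM in Blank (SD, n = 3 each). Its log2 fold change was -0.61 in Model against Blank (edgeR adjusted p = 0.831), and against Model it was 0.64 in SYT (adjusted p = 1), 0.19 in YJT (adjusted p = 0.956) and -0.76 in YJZYT (adjusted p = 0.761), each with an SE of 0.48. The growth hormone receptor gene Ghr had -0.66 in Model against Blank, 0.22 in SYT, 0.0099 in YJT and -0.71 in YJZYT against Model, with adjusted p of 0.837, 1, 0.999 and 0.792. Irs1, the adaptor of the IGF1 receptor, had 0.17, 0.29, -0.59 and -0.33 in the same order, and Stc2, an inhibitor of PAPP-A, -0.71, 1.35, 0.71 and 0.24. None of these passed.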

How the data were processed

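Per the labels' protocols, poly(A) RNA was sequenced from libraries carrying unique molecular identifiers. Tools named without roles in the submitters' processing notes are HISAT2 2.0.4, StringTie 1.3.4d, cutadapt 1.9, UMI-tools, edgeR and DESeq2. The sources used here give no genome build, counting step or strand setting, so overlapping genes may share reads. Per the file headers, the authors deposited, for each of 22468 genes and each library, a raw count and an FPKM value. Counts summed to between 64472700 and 74255667 a library.

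Counts were tested with edgeR 4.0.16 (R 4.3.3): filterByExpr, TMM scaling and 1 robust quasi-likelihood fit of all 15 libraries with 10 residual degrees of freedom. Contrasts were two-sided with Benjamini-Hochberg adjustment over 17657 genes and a threshold of 0.05. The biological coefficient of variation was 42.7%. The standard error is the log2 fold change over the root of F. CPM are TMM-scaled, and log2 CPM used a prior count of 2. A library's score for a marker list is the median, over the genes listed, of log2 CPM centred on each gene's mean. Correlations used 100000 permutations of the 15 libraries regardless of group (scipy 1.17.1), so their p-values include shared differences between groups. Alternatives were RLE or no scaling, no filter, DESeq2 1.42.0, limma 3.58.1 on log2(FPKM + 1) of the deposited FPKM, a replicate block, each library left out, and the fit without YJT3 and YJZYT3. The edgeR steps were tested on simulated data.

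The members and lists were chosen with earlier results of these data known. All 9 members were named, with the 3 genes of highest r to each, and, of the other IGF genes, the 3 with the smallest unadjusted p per contrast and Igfbp7, Ghr, Irs1 and Stc2. A gene that this rule names is not reported here.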

Additional observations from a re-analysis of the deposited data

How the results depend on the processing

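The number of the 9 genes called stayed at 0 in all 10 comparisons and in the test of any difference with RLE or no scaling, no filter, the replicate block, each library left out, and without YJT3 and YJZYT3. With DESeq2 it was 1 in YJZYT against Blank, 1 in YJZYT against SYT, 2 in YJZYT against YJT and 1 for any difference, and with limma 1 in YJZYT against Blank. Both tools gave 0 elsewhere. The cause was not tested. The call concerned was Igfbp6 in each, with Igf2 beside it in YJZYT against YJT. The edgeR adjusted p of Igfbp6 in YJZYT against Blank ran from 0.159 to 0.274 with a library left out and was 0.131 with the replicate block. Same-numbered libraries of Model and Blank deviated from their group means with correlations of 0.209, 0.238 and 0.058. Each was above the highest with another number, at 0.131, -0.127 and 0.020. Those of SYT and Model had -0.139, -0.330 and 0.312, where the highest with another number were 0.345, 0.388 and -0.089. YJT and YJZYT against Model were also mixed. Whether the numbers pair the samples was not settled, and the main fit used no pairing.

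Without scaling, the median log2 fold change of all genes moved by -0.25 in SYT, -0.14 in YJT and -0.15 in YJZYT against Model. In SYT against Model, Igf2r was then -0.23 (limma -0.22), Igfbp3 -0.012 (limma -0.060) and Igfbp4 -0.070 (limma -0.30), all against positive values. In YJZYT against Model, Igfbp2 was -0.31 with limma and Igfbp4 was 0.22 without YJT3 and YJZYT3. With a library left out, several values changed sign, among them those of Igf1r, 0.35 in Model against Blank and -0.39 in YJZYT against Model. In Model against Blank the ranges were -0.051 to 0.55 for Igf1r, -0.062 to 0.24 for Igf2r, -0.97 to 0.20 for Igfbp2, -0.41 to 0.040 for Igfbp3 and -0.20 to 0.36 for Igfbp4. In SYT against Model they were -0.40 to 0.30 for Igf1r, -0.15 to 0.16 for Igf2r, -0.24 to 0.45 for Igfbp3, -0.50 to 0.47 for Igfbp4 and -0.84 to 0.088 for Igfbp5. In YJZYT against Model they were -0.60 to 0.0068 for Igf1r, -1.29 to 0.92 for Igfbp2 and -0.44 to 0.22 for Igfbp4. The fold changes of Igf1, Igf2 and Igfbp6 kept their sign in the 4 comparisons of Model with Blank and of each condition with Model under these alternatives. With a library left out, their sizes in Model against Blank ran from -0.54 to -0.33 for Igf1, -0.91 to -0.14 for Igf2 and -3.28 to -2.17 for Igfbp6. In SYT against Model they ran from -0.85 to -0.17, 0.16 to 1.05 and 0.61 to 2.03 for the same genes, in YJT against Model from -1.13 to -0.14, 0.53 to 1.29 and 1.15 to 2.45, and in YJZYT against Model from -1.04 to -0.43, -1.71 to -0.65 and -2.45 to -1.09. Taken from CPM, the Igfbp6 share of binding protein transcripts differed by -4.39 percentage points in Model against Blank and 4.26 in YJT against Model, against -13.8 and 13.3 from FPKM, and the Igfbp4 share in SYT against Model by 3.39, against -1.27.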
